A study of Homo sapiens with 6 samples.

Results

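Transcript levels of the enzymes that remove acetyl groups from proteins, and of the complexes that carry them to chromatin, were followed in A549 cells treated with Comp.2 or Comp.4. The list held 42 genes: 11 histone deacetylases (HDACs), 7 sirtuins and 24 subunits of the SIN3, NCOR, CoREST and NuRD corepressor complexes. Their probe sets were found by gene symbol, and 39 of the 42 had a probe set of their own, among 22395 genes measured in all. HDAC10 and RBBP4 shared their probe set with another symbol (MAPK12 and the pseudogene RBBP4P1), and NCOR1 was unnamed here, so these 3 entered no comparison. A549 is an established human lung adenocarcinoma line. The 3 groups were vehicle, Comp.2 at 2 µM and Comp.4 at 2 µM, each of 2 arrays. Cells were treated 24 h after plating and RNA was taken 2 days later. The series title calls the compounds inhibitors of histone acetyltransferases that read DNA sequence; the design text names them 646-PIP, whereas the treatment protocol writes 664-PIP. All groups come from 1 cell line, and nothing in the labels tells whether the 2 samples of a group grew in separate dishes; p-values therefore cover the variation between the samples at hand, which may be technical.

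HDACs and sirtuins take acetyl groups off lysines, the step opposite to that of histone acetyltransferases. HDACs of classes I, II and IV use a zinc ion, and sirtuins consume NAD. Class I enzymes work largely inside corepressor complexes: HDAC1 and HDAC2 in SIN3, CoREST and NuRD, and HDAC3 with the NCOR corepressors. Class IIa enzymes have weak catalytic activity of their own and shuttle between nucleus and cytoplasm, binding MEF2 factors. Acetyltransferases and deacetylases thus set histone acetylation together, which is why the transcripts of the removing side were followed in a study of acetyltransferase inhibitors.

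All 6 epithelial markers lay above the median gene (log2 5.35), as did the 4 measured genes known to be high in A549. The 5 markers of alveolar type 2 cells, for which the line is often used as a model, were all below it and averaged 3.79, 3.97 and 4.00 under vehicle, Comp.2 and Comp.4. The 3 measured endothelial markers were below it too, with averages of 4.11, 4.17 and 4.23 in the same order. The 5 fibroblast markers averaged 4.01, 4.08 and 4.06 and the 4 leukocyte markers 3.87, 3.91 and 3.87, with 1 of each above the median gene (COL1A1 and CD14). No marker passed an adjusted p of 0.05 against vehicle. The number of arrays limits the precision.

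Among the 39 genes, 1 passed the test in 1 comparison: SAP130, a SIN3 complex subunit, was 1.43-fold lower under Comp.4 than under Comp.2 (limma adjusted p = 0.0475), where 0.371% of all genes passed. SIRT1, the best known nuclear sirtuin, had the largest difference under Comp.2 (log2 -0.37), and RCOR3, a CoREST scaffold, the second largest under Comp.4 (-0.40), and neither passed. The class I HDACs stayed within a log2 difference of -0.17 to 0.15 in every comparison. Because the arrays measure a cell population, fewer cells with a transcript and less of it per cell cannot be told apart.

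The promoters of SAP130, the gene that differed between the compounds, and of SIRT1, the member with the lowest p under Comp.2, are shown first. They are windows of 300 bases, 250 before and 50 after an annotated start, from RefSeq in GRCh38.p14. Capitals mark matches to any of 4 motifs on either strand. The GC box was searched as GGGCGG. An E-box meant the letters CACGTG. The CCAAT box was searched by those letters, and the TATA box as TATAAA. Overlapping matches were counted each.
SIRT1, chr10:67884406-67884705, plus strand: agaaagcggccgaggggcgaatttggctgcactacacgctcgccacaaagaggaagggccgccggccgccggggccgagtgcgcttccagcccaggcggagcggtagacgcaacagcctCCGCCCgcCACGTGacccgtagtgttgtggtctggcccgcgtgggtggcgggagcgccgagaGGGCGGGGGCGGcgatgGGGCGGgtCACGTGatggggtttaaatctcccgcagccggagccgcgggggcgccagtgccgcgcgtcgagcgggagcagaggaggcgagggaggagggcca
SAP130, chr2:128028010-128028309, minus strand: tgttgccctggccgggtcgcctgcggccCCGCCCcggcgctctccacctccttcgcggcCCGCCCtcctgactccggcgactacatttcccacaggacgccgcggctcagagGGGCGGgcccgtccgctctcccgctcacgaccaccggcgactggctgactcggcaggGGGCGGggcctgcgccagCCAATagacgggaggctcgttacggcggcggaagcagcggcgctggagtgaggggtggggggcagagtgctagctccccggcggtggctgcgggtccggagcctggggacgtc
SAP130, chr2:128027257-128027556, minus strand, from a second annotated start: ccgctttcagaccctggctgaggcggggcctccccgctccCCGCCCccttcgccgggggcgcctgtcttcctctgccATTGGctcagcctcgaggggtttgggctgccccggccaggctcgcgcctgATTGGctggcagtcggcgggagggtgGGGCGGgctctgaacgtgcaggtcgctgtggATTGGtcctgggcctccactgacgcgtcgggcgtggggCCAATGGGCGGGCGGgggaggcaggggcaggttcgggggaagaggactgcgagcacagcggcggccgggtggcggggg
The SIRT1 window held 4 GC boxes and 2 E-boxes, with no CCAAT or TATA box. Each SAP130 window held 4 GC boxes, with 1 CCAAT box at the upstream start and 4 at the downstream one. A GC box stood in 45.0% of all 35116 windows of the table and a CACGTG E-box in 7.26%. Windows were found for 36 of the 39 genes, 58 in all, of which 69.0% held a GC box, 36.2% a CCAAT box (34.6% of all windows), 5.17% the E-box and 5.17% a TATA box (11.5% of all). These windows were also richer in G and C, with a median of 68.8% against 58.7%. A match is a description of the letters alone.

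**Figure D1:**
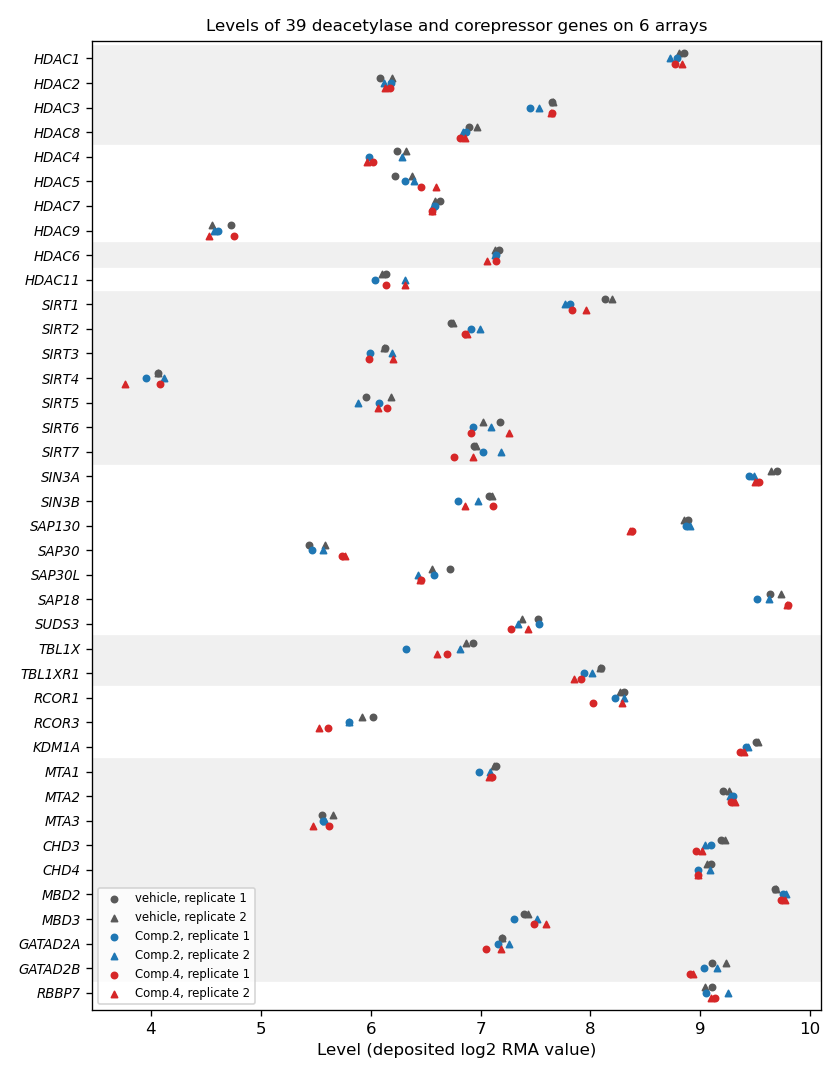
Deposited log2 level (x axis) of the 39 measured genes (y axis) on each of the 6 arrays; grey, blue and red mark vehicle, Comp.2 and Comp.4, circles and triangles replicates 1 and 2, and the background bands separate the classes. Most genes keep the 3 groups close together, while the SAP130 arrays of Comp.4 (8.37 and 8.36) stand below the other 4 arrays (8.85 to 8.90). Positions of different genes come from different probe sets and are not to be compared.

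The 4 class I HDACs include the catalytic subunits of the corepressor complexes, and none of them reached an unadjusted p of 0.05 in any comparison. HDAC1 was at 8.85 and 8.81 under vehicle, 8.78 and 8.73 under Comp.2 and 8.77 and 8.83 under Comp.4. Its log2 differences from vehicle were -0.07 (95% interval -0.24 to 0.10) and -0.03 (-0.20 to 0.14). HDAC2, its close paralog, had 0.01 under each compound, with intervals inside -0.17 to 0.19. The Comp.2 arrays of HDAC1 lay just below those of vehicle, and all 3 groups of HDAC2 overlapped. HDAC3 was at 7.65 and 7.66 under vehicle, 7.45 and 7.53 under Comp.2 and 7.65 and 7.64 under Comp.4. Its Comp.2 arrays were the lowest of the 6, with a difference of -0.17 (interval -0.33 to 0.003; limma adjusted p = 0.453), and under Comp.4 the difference was -0.01. HDAC8, which works outside these complexes, had -0.08 and -0.09. Over the 4 genes the intervals reached no further than -0.33 and 0.19 against vehicle, so changes of 2-fold lie outside them.

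Among the class IIa HDACs, HDAC4 and HDAC5 had opposite signs under Comp.4. HDAC4 was at 6.24 and 6.33 under vehicle, 5.98 and 6.28 under Comp.2 and 6.02 and 5.96 under Comp.4. The Comp.4 arrays lay below vehicle, by -0.29 (SE 0.11; limma adjusted p = 0.263), while the Comp.2 arrays were 0.30 apart, 1 of them within the vehicle range. HDAC5 was at 6.22 and 6.37 under vehicle, 6.31 and 6.39 under Comp.2 and 6.45 and 6.60 under Comp.4. Here the Comp.4 arrays were the highest of the 6, by 0.23 over vehicle (SE 0.09; limma adjusted p = 0.280). HDAC7 had -0.03 under Comp.2 and -0.05 under Comp.4. HDAC9, which was below the median gene in level and so close to the background floor, had -0.05 and -0.001.

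HDAC6, the cytoplasmic tubulin deacetylase of class IIb, ranged from 7.06 to 7.17 over the 6 arrays, with differences of -0.01 and -0.05. HDAC11, the class IV enzyme, ranged from 6.04 to 6.32, and its second array was the higher under either compound; its differences were 0.06 and 0.10. No HDAC passed in any comparison with limma. At an unadjusted p under 0.05 there were 0 of 10 under Comp.2 (11.2% of all genes), 2 under Comp.4 (HDAC4 and HDAC5; 16.5% of all genes) and 0 between the compounds (15.0% of all genes).

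The sirtuins held the largest Comp.2 difference of the list. SIRT1, a nuclear deacetylase whose targets include p53, was at 8.13 and 8.19 under vehicle, 7.82 and 7.77 under Comp.2 and 7.84 and 7.96 under Comp.4. Every treated array lay below both vehicle arrays. The difference was -0.37 under Comp.2 (SE 0.08, 95% interval -0.56 to -0.19), a 1.29-fold lower level, with a limma adjusted p of 0.189. Under Comp.4 it was -0.26 (interval -0.45 to -0.08; limma adjusted p = 0.186). Both comparisons share the vehicle arrays. SIRT1 passed under Comp.2 with a variance trend (limma adjusted p = 0.0174) and among the brighter genes (0.0443). Under Comp.4 it passed with a variance trend (0.0413). It passed in no other of the 16 alternatives. The variance trend raised calls over all genes from 44 to 388 under Comp.2 and from 33 to 1226 under Comp.4. Between the compounds SIRT1 differed by 0.11 (interval -0.08 to 0.30).

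SIRT2, a mainly cytoplasmic enzyme, had the opposite sign. It was at 6.73 and 6.75 under vehicle, 6.91 and 6.99 under Comp.2 and 6.86 and 6.88 under Comp.4. All treated arrays were above vehicle, by 0.21 under Comp.2 (SE 0.07; limma adjusted p = 0.365) and 0.13 under Comp.4 (adjusted p = 0.427). SIRT7, the nucleolar sirtuin, was at 6.94 and 6.96 under vehicle, 7.02 and 7.19 under Comp.2 and 6.76 and 6.94 under Comp.4. Comp.2 was highest, while vehicle and Comp.4 all but met (6.938 against 6.936), with the Comp.4 arrays 0.18 apart. The compounds differed by -0.26 (interval -0.48 to -0.03, limma adjusted p = 0.280).

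The mitochondrial sirtuins SIRT3, SIRT4 and SIRT5 overlapped between all groups. SIRT3 had -0.03 under each compound, SIRT4 -0.03 and -0.14, and SIRT5 -0.09 and 0.04, and SIRT4 was dim, at 3.77 to 4.12 over the arrays. SIRT6, which acts in the nucleus on histone H3, had -0.09 and -0.01, with Comp.4 arrays 0.34 apart. No sirtuin passed with limma, and at an unadjusted p under 0.05 there were 2 of 7 under Comp.2, 1 under Comp.4 and 1 between the compounds, or 28.6%, 14.3% and 14.3%, against 11.2%, 16.5% and 15.0% of all genes.

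**Figure D2:**
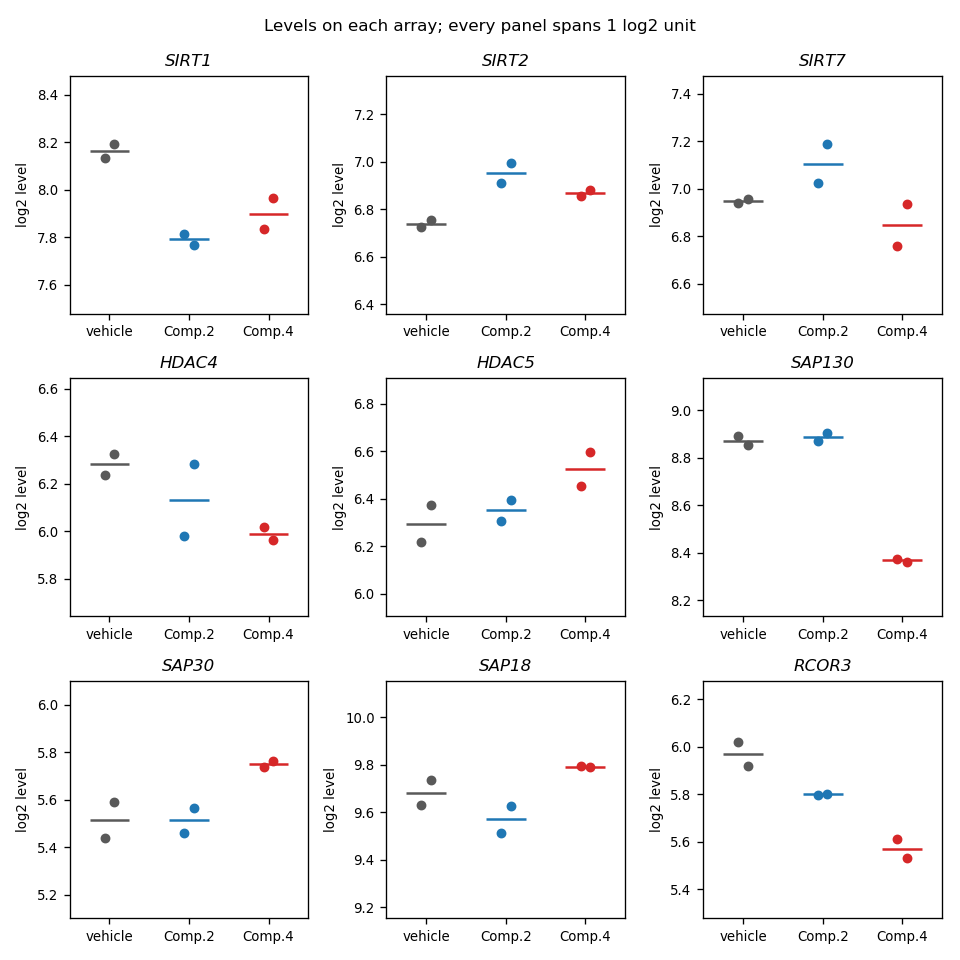
log2 level (y axis, 1 log2 unit per panel) of 9 members on each array (points) by group (x axis), with the group mean as a line. SIRT1 is lower and SIRT2 higher on every treated array than on both vehicle arrays, and SAP130 is low on the Comp.4 arrays alone, at a mean of 8.37 against 8.87 and 8.89.

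The SIN3 complex held the one member that passed. SAP130, a subunit that binds the SIN3 scaffold, was at 8.89 and 8.85 under vehicle, 8.87 and 8.90 under Comp.2 and 8.37 and 8.36 under Comp.4. Vehicle and Comp.2 overlapped, while both Comp.4 arrays were about 0.5 lower than the rest. Against Comp.2 the Comp.4 level was 1.43-fold lower, by -0.52 (SE 0.07, 95% interval -0.68 to -0.36; limma adjusted p = 0.0475). Against vehicle it was 1.42-fold lower, by -0.50 (interval -0.67 to -0.34), with a limma adjusted p of 0.0641, above the threshold. Comp.2 differed from vehicle by 0.02 (interval -0.15 to 0.18). The call between the compounds lay close to the threshold and was lost without any 1 of the 6 arrays (-0.54 to -0.50; adjusted p 0.136 to 0.221).

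The other SIN3 genes were mixed. SIN3A, the main scaffold, was at 9.69 and 9.64 under vehicle, 9.45 and 9.49 under Comp.2 and 9.54 and 9.50 under Comp.4, so both compounds lay below vehicle. Its differences were -0.20 under Comp.2 (SE 0.07; limma adjusted p = 0.375) and -0.15 under Comp.4 (adjusted p = 0.341). The paralog SIN3B also had -0.20 under Comp.2, with arrays 0.18 apart, and -0.10 under Comp.4. SAP30, which links HDACs to SIN3, was at 5.44 and 5.59 under vehicle, 5.46 and 5.57 under Comp.2 and 5.74 and 5.76 under Comp.4. Its Comp.4 arrays were the highest, by 0.24 over either other group (limma adjusted p = 0.239 against vehicle and 0.268 against Comp.2), whereas its paralog SAP30L had -0.18 under Comp.4. SAP18, also a splicing-linked protein, was at 9.63 and 9.73 under vehicle, 9.51 and 9.63 under Comp.2 and 9.79 and 9.79 under Comp.4. The groups of SAP18 stood in the order Comp.2, vehicle, Comp.4, though Comp.2 and vehicle all but met (9.628 against 9.632). The compounds differed by 0.22 (interval 0.03 to 0.41, limma adjusted p = 0.272). SUDS3, which stimulates HDAC activity in the complex, had -0.01 and -0.09, with all groups overlapping.

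In the NCOR and CoREST complexes, all 5 measured members had negative differences under both compounds, none past the threshold. Over the whole list 74.4% of differences were negative under Comp.2 and 71.8% under Comp.4, against 48.7% and 45.1% of all genes. The 11 further measured genes of these complexes went both ways: 4 of 5 NCOR partners and 1 of 6 CoREST partners were positive under Comp.2, and 2 and 1 under Comp.4. RCOR3 was at 6.02 and 5.92 under vehicle, 5.80 and 5.80 under Comp.2 and 5.61 and 5.53 under Comp.4. The 3 groups did not overlap: vehicle was highest, Comp.2 between and Comp.4 lowest. Under Comp.4 RCOR3 was 1.32-fold lower, by -0.40 (SE 0.08, interval -0.58 to -0.22; limma adjusted p = 0.0993), and under Comp.2 it had -0.17 (adjusted p = 0.463). The compounds differed by -0.23 (adjusted p = 0.244). With a variance trend the Comp.4 difference of RCOR3 passed (limma adjusted p = 0.0378), as it did among the brighter genes (0.0209). It passed in no other of the 16 alternatives. Calls over all genes in these settings were 1226 and 839, against 33 in the main fit.

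RCOR1, the better known CoREST scaffold, had -0.03 and -0.14, with the 2 Comp.4 arrays 0.27 apart. KDM1A, the histone demethylase of CoREST, was at 9.51 and 9.52 under vehicle, 9.42 and 9.44 under Comp.2 and 9.36 and 9.40 under Comp.4. Its groups did not overlap, though the steps were small (-0.09 and -0.14 from vehicle). TBL1XR1, a subunit of the NCOR complex, was at 8.10 and 8.09 under vehicle, 7.94 and 8.01 under Comp.2 and 7.91 and 7.85 under Comp.4. It had -0.12 under Comp.2 and -0.21 under Comp.4 (limma adjusted p = 0.223). TBL1X, its paralog, had -0.33 under Comp.2, the second largest difference there, with an interval from -0.69 to 0.03. Its Comp.2 arrays (6.32 and 6.81) were 0.49 apart, the widest replicate gap among the members.

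The 9 NuRD genes measured differed little under Comp.2, from -0.14 to 0.08. CHD3, a remodelling ATPase of NuRD, was at 9.19 and 9.22 under vehicle, 9.09 and 9.04 under Comp.2 and 8.96 and 9.02 under Comp.4. Its groups were in the order vehicle, Comp.2, Comp.4, with -0.14 and -0.21 from vehicle (limma adjusted p = 0.525 and 0.216). GATAD2B, a zinc finger subunit, was at 9.10 and 9.23 under vehicle, 9.04 and 9.15 under Comp.2 and 8.91 and 8.93 under Comp.4. Here Comp.4 was lowest, by -0.25 from vehicle (adjusted p = 0.219), while Comp.2 overlapped vehicle (-0.07). CHD4, the other ATPase, had -0.05 and -0.10, and GATAD2A 0.01 and -0.08. The methyl-DNA binding MBD2 and the related MBD3, which are alternative NuRD subunits, had 0.07 and 0.13 under Comp.4. The MTA scaffolds MTA1, MTA2 and MTA3 lay between -0.10 and 0.06 under either compound. RBBP7, a histone-binding subunit shared by NuRD and SIN3, had 0.07 and 0.04.

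**Figure D3:**
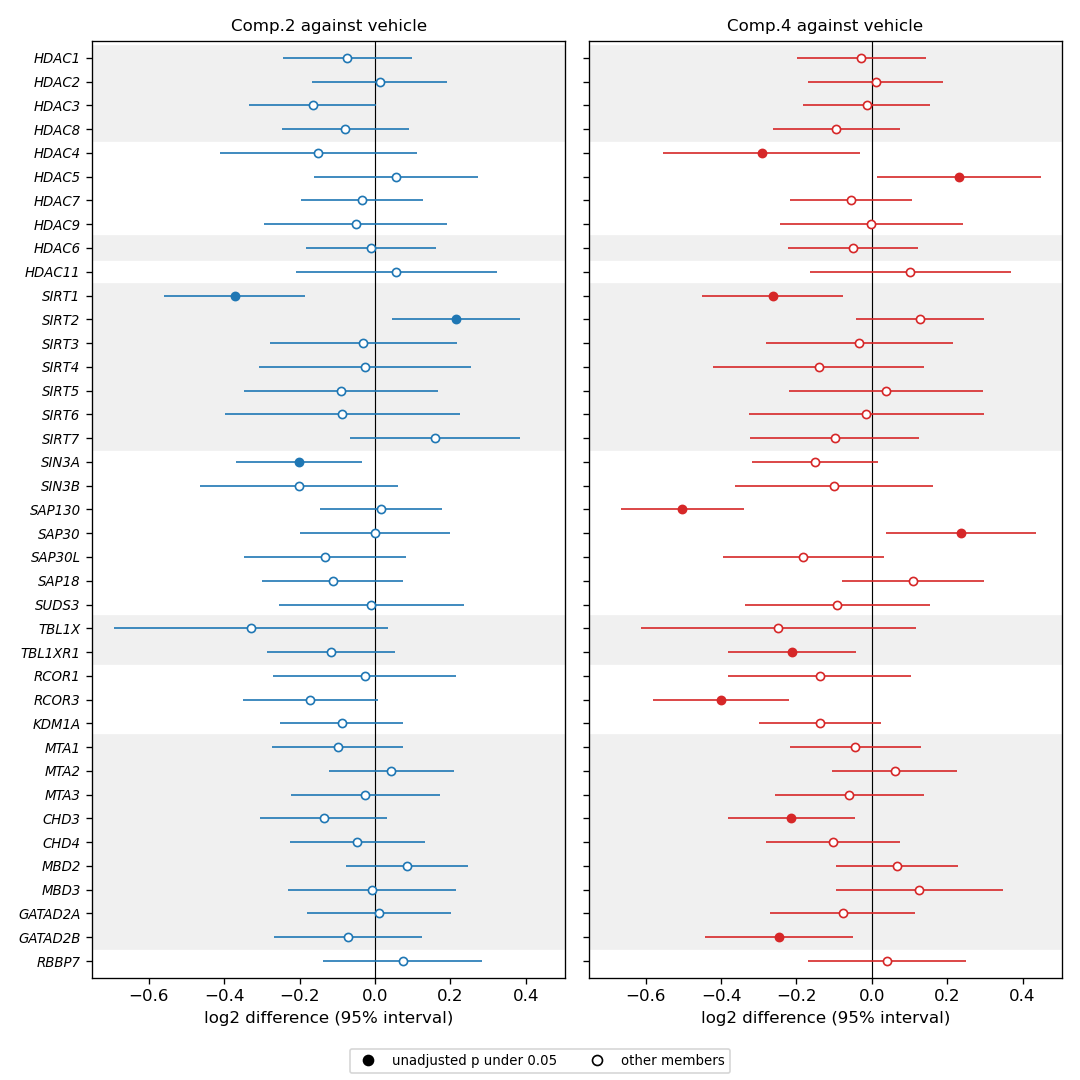
log2 difference from vehicle (x axis) of each of the 39 genes (y axis) with its 95% interval from limma, for Comp.2 on the left and Comp.4 on the right; filled points have an unadjusted p under 0.05 and bands separate the classes. No member passed the adjusted threshold; 3 points are filled for Comp.2 and 9 for Comp.4, and the points nearest the left edge for Comp.4 are SAP130 (-0.50) and RCOR3 (-0.40).

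Counted over the list, 0 of 39 genes passed an adjusted p of 0.05 under Comp.2 with limma, where 0.196% of all genes did (0.134% higher and 0.0625% lower). At an unadjusted p under 0.05, 1 was higher (SIRT2) and 2 lower (SIRT1 and SIN3A), or 7.69%, below the 11.2% of all genes (6.23% higher and 4.94% lower). With each array centred on its median the split was 1 higher and 4 lower, against 5.13% and 6.32% of all genes. The median difference was -0.05, against 0.004 over all genes. Of 39 values 29 were negative (74.4%, against 48.7% of all genes and 52.8% of genes brighter than the median gene). The arrays of Comp.2 and vehicle did not overlap for 4 higher and 14 lower members, or 10.3% and 35.9%. These shares were 22.7% and 21.0% over all genes and 23.5% and 27.1% over the brighter ones. The 2 Comp.2 arrays themselves differed by a median of 0.08 over the 39 genes, the second the higher for 27 of them, and without the first Comp.2 array the median was -0.02. Without either vehicle array the unadjusted counts were 0 higher and 1 lower; without Comp.2 replicate 1 they were 1 and 1, and without Comp.2 replicate 2 they were 0 and 4.

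Under Comp.4, 0 of 39 passed with limma, against 0.147% of all genes (0.0536% higher and 0.0938% lower). At an unadjusted p under 0.05, 2 were higher (HDAC5 and SAP30) and 7 lower (SAP130, RCOR3, SIRT1, CHD3, GATAD2B, TBL1XR1 and HDAC4). Over all genes 8.64% were higher and 7.88% lower, against 5.13% and 17.9% of the list. Genes brighter than the median gene, to which 37 of the 39 belong, had 9.63% higher and 12.2% lower. With arrays centred on their median the split was 1 and 9, against 6.28% and 10.4% of all genes. The median difference was -0.06, against 0.02 over all genes. Arrays of Comp.4 and vehicle did not overlap for 7 higher and 18 lower members, or 17.9% and 46.2%, against 27.2% and 22.2% of all genes and 28.4% and 31.1% of the brighter ones. Without vehicle replicate 1 the counts were 0 higher and 4 lower, without vehicle replicate 2 they were 2 and 3, without Comp.4 replicate 1 they were 1 and 4, and without Comp.4 replicate 2 they were 0 and 5. Without either Comp.2 array, which enters only the spread, they were 1 and 8.

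The compounds were then compared directly, as 1 pair at the same dose and day, with p-values adjusted over all 22395 genes. Of the 39 genes 1 was lower under Comp.4 (SAP130) and none higher, against 0.192% of all genes called higher and 0.179% called lower. At an unadjusted p under 0.05, 2 were higher under Comp.4 (SAP30 and SAP18) and 3 lower (SAP130, SIRT7 and RCOR3), or 12.8%, against 15.0% of all genes (7.52% higher and 7.45% lower). Arrays did not overlap for 6 higher and 9 lower members, or 15.4% and 23.1%, against 23.7% and 21.6% of all genes. Over the brighter genes these shares were 26.6% and 28.3%. Of the 5 members at an unadjusted p under 0.05, 3 were in the SIN3 complex, in both directions. These were 3 of its 7 measured members, RBBP7 aside, or 42.9%, against 15.0% of all genes and 20.2% of the brighter ones. The median difference of the list was -0.02, against 0.01 over all genes. Without Comp.2 replicate 1, or without either Comp.4 array, the unadjusted counts were 0 higher and 3 lower; without Comp.2 replicate 2 they were 4 and 1. For the 10 HDACs the intervals of the difference between compounds ran from -0.40 to 0.39, so differences beyond these bounds lie outside every interval.

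**Figure D4:**
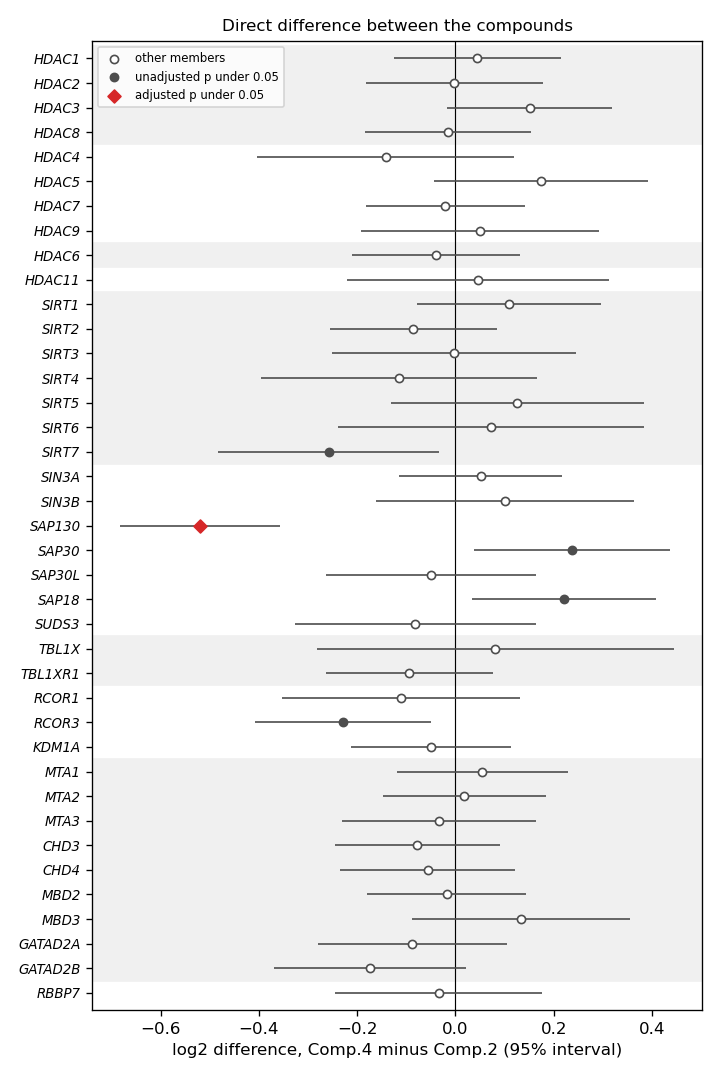
log2 difference of Comp.4 minus Comp.2 (x axis) for each of the 39 genes (y axis), with the 95% interval from limma; the red diamond passed an adjusted p of 0.05, filled grey points an unadjusted p under 0.05, and bands separate the classes. SAP130 stands apart at -0.52, and SAP30 (0.24) and SAP18 (0.22) of the same complex lie on the other side of 0.

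Other genes of these complexes, and of the NAD supply that sirtuins use, were taken from a list of 53, of which 47 were measured. None of the 47 passed with limma in any of the 3 comparisons. At an unadjusted p under 0.05, 5 were higher and 2 lower under Comp.2, or 10.6% and 4.26%, against 6.23% and 4.94% of all genes. Under Comp.4 these were 3 and 10, or 6.38% and 21.3%, against 8.64% and 7.88%. Between the compounds they were 3 and 5, or 6.38% and 10.6%, against 7.52% and 7.45%. Most of the 47 were brighter than the median gene. Genes above it had 7.16% higher and 6.53% lower under Comp.2, 9.63% and 12.2% under Comp.4, and 9.38% and 10.8% between the compounds. Of the 8 measured further SIN3 genes, 4 reached an unadjusted p under 0.05 under Comp.4, all lower (PHF12, KDM5A, ARID4B and OGT). There 7.88% of all genes and 12.2% of the brighter ones were lower at that p. PHF12, a chromatin reader, was at 8.56 and 8.58 under vehicle, 8.49 and 8.43 under Comp.2 and 8.28 and 8.25 under Comp.4, with -0.31 (limma adjusted p = 0.124). ARID4B had -0.18 under Comp.4 and 0.14 under Comp.2, and the compounds differed by -0.32 (adjusted p = 0.140). PHF21A, the CoREST subunit that reads unmethylated histone H3, was at 7.94 and 7.98 under vehicle, 7.69 and 7.77 under Comp.2 and 7.64 and 7.65 under Comp.4. Its treated arrays were all below vehicle, by -0.23 and -0.31 (adjusted p = 0.348 and 0.128).

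On the NAD side, CD38, an enzyme that degrades NAD, was at 6.55 and 6.38 under vehicle, 6.46 and 6.59 under Comp.2 and 5.95 and 6.15 under Comp.4. The Comp.4 arrays were lower than the other 4, by -0.42 from vehicle (limma adjusted p = 0.143) and -0.47 from Comp.2 (adjusted p = 0.129). QPRT, which makes NAD precursors from tryptophan, had 0.26 under Comp.2 (adjusted p = 0.361) and 0.22 under Comp.4. NNMT, which methylates nicotinamide, was higher under Comp.4 than under Comp.2 by 0.27 (adjusted p = 0.277). ANKRA2, an ankyrin repeat protein that binds class IIa HDACs, was at 4.58 and 4.59 under vehicle, 4.97 and 4.92 under Comp.2 and 4.87 and 4.84 under Comp.4. All its treated arrays were above vehicle, by 0.36 under Comp.2 (adjusted p = 0.151) and 0.27 under Comp.4 (adjusted p = 0.144), at a level below the median gene. TBL1Y had 0.43 under Comp.2 (adjusted p = 0.326), at levels of 2.98 to 3.61 that lie near the background floor.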

How the data were processed

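RNA of 6 A549 samples was measured on Affymetrix arrays, 2 per group. The deposited values are log2 expression per probe set. RMA is named in the submitters' processing notes, beside Expression Console 1.3.1 from Affymetrix and version 2.0 of Transcriptome Analysis Console. The array medians lay between 4.55 and 4.56, so a change shared by most transcripts cannot be seen. RMA values carry a background floor, which makes differences of dim probe sets too small.

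Of 53617 probe sets, 23871 had 1 gene symbol in the platform annotation, 1842 several and 27904 were unnamed here. Of those with 1 symbol, 22569 matched a RefSeq gene table of GRCh38.p14 by Entrez number, and 90 symbols were updated. For 632 genes with more than 1 probe set the one with the highest mean over the 6 arrays was used, which left 22395 genes. No member was among those 632 genes.

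Differences came from limma 3.58.1 in R 4.3.3, with a mean per group fitted to all 6 arrays (3 residual and 3.71 prior degrees of freedom). P-values were two-sided and adjusted by Benjamini-Hochberg over 22395 genes within a comparison, with a threshold of 0.05. The script was tested on simulated data. No permutation test was run, since 2 arrays in each group allow no exact p under 0.333. The members and gene lists were chosen with earlier results of these data known. Values were given for every HDAC and sirtuin, for other members at an unadjusted p under 0.05 or among the 5 largest differences of a comparison, and for the 3 partner genes with the largest differences at that level. Further members shown as examples were chosen after their values were seen.

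Alternatives were a variance trend, robust variance, brighter genes alone, all probe sets, protein-coding genes alone, averaged probe sets, 2 further scalings, only the 2 groups compared, a replicate block, and leaving out each array in turn. Promoter windows came from a RefSeq table of GRCh38.p14 matched by symbol.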

Additional observations from a re-analysis of the deposited data

Results flagged for a closer look

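SAP130 was the member for which the effects of the compounds differed past the threshold: the Comp.4 minus Comp.2 difference was -0.52 (limma adjusted p = 0.0475), with differences from vehicle of 0.02 under Comp.2 and -0.50 under Comp.4. Groups of 2 arrays are too small for a check of single outlying arrays.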

How the results depend on the processing

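The median difference of the list moved from its reported value by less than the spread between replicates (SD 0.0332) in all 48 recomputed values. That spread is close in size to the medians themselves (-0.05, -0.06 and -0.02). Most of the 48 values equalled the reported median, since only the 2 further scalings and leaving out an array of a compared group alter a member's difference. Under Comp.2 the median was -0.02 without Comp.2 replicate 1. Between the compounds it was 0.0009 without Comp.2 replicate 2. Across 16 alternatives, 1269 of 1290 recomputed differences of 27 named members kept their side of the threshold and none with a call changed sign. Some uncalled differences near 0 did change sign: HDAC2 under Comp.2 kept its sign in 13 of 16 alternatives. Nearly all of the recomputed differences were uncalled in the main fit, where SAP130 between the compounds was the only call. SAP130 kept that call with a variance trend, robust variance, brighter or protein-coding genes alone, averaged probe sets or centred arrays. In all other alternatives it lost the call. With a variance trend 2, 5 and 2 members passed under Comp.2, under Comp.4 and between the compounds, against 0, 0 and 1, while calls over all 22395 genes went from 44, 33 and 83 to 388, 1226 and 1075. The added calls were SIRT1 and SIN3A under Comp.2, SIRT1, SAP130, RCOR3, CHD3 and GATAD2B under Comp.4, and SAP18 between the compounds. With brighter genes alone 1 of 37 passed under Comp.2 and 2 under Comp.4, where 233 and 839 of all 11197 such genes did. SAP130 did not pass between the compounds (0 members) with all probe sets tested together (limma adjusted p = 0.106), with a second quantile normalization (0.0552) or with only the 2 groups (0.136). Of all probe sets or genes tested, 2, 64 and 0 passed in these settings. At an unadjusted p under 0.05, the lower members under Comp.2 were 5 with a variance trend and 4 with brighter genes alone, protein-coding genes alone or centred arrays. The higher members under Comp.4 fell to 1 with all probe sets, centred arrays or only the 2 groups.

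Leaving out each array in turn, members past the adjusted threshold between the compounds were 0. The unadjusted counts ran from 0 to 1 higher and 1 to 4 lower under Comp.2, 0 to 2 and 3 to 8 under Comp.4, and 0 to 4 and 1 to 3 between the compounds. Where a group keeps 1 array, it is assumed to vary like the others.

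The deviations of same-numbered arrays correlated at 0.03, 0.01 and -0.04, so no shift shared by same-numbered arrays was visible. Whether these samples were handled together cannot be told from such correlations or from the labels. With a replicate block no member passed between the compounds (0; SAP130 adjusted p = 0.109), and the unadjusted counts were 1 and 2, 2 and 7, and 2 and 3. The cause of these changes was not tested. With 2 arrays per group, differences under the half-width of the intervals could not be told from 0 even before adjustment. Larger ones could still miss the adjusted threshold, as SAP130 did under Comp.4 against vehicle (-0.50, limma adjusted p = 0.0641).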
